A study of Mus musculus with 15 samples.

Results

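Kcnc1, Map2, St8sia1, Gucy1a1 and Zfp462 are 5 genes, of 48795 listed, that were followed in invariant natural killer T (iNKT) cells from 4 lymphoid tissues. They were chosen on their expected counts and TPM in these same samples, for large increases in lymph nodes (LNs) against spleen or against spleen and thymus, so their levels and fold changes are given as a description, with no test. iNKT cells are T cells that recognise lipids on CD1d, through a T cell receptor with a nearly fixed α chain and a variable β chain. They were sorted as cells that bound CD1d tetramer, expressed TCRβ and lacked B220, CD11b, CD11c and CD8, from wild-type C57BL/6 mice aged 6 weeks, for which the labels name no treatment. The 15 samples were 4 from thymus, 4 from spleen, 4 from mesenteric LN (mLN) and 3 from inguinal LN (iLN, replicates 2 to 4, with replicate 1 not analysed here). Replicates 3 and 4 formed the first batch (8 samples) and replicates 1 and 2 the second batch (7 samples, of which 1 was from iLN). The labels call the samples biological replicates but do not say whether a replicate was 1 mouse or a pool, and p-values measure the spread between these samples. LNs were digested with collagenase before sorting whereas spleen and thymus were strained, so in an LN against spleen or thymus tissue and preparation cannot be told apart. Total expected counts were between 1152702 and 8161474 in thymus, 4919511 and 8670570 in spleen, 4740370 and 7914302 in mLN, and 4080550 and 5360793 in iLN. The smallest library was thymus replicate 2, in which 3 counts, used as the detection floor, correspond to 2.21 CPM, against 0.296 to 0.826 CPM in the other libraries. CPM is the expected count scaled to library size, after TMM normalisation, and floors cover counting error only.

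Most of these genes are best known from neurons or muscle rather than lymphocytes. Kcnc1 encodes a voltage-gated potassium channel subunit (Kv3.1) that lets neurons fire rapidly, Map2 a protein that binds microtubules in dendrites, and St8sia1 the Golgi enzyme that makes ganglioside GD3, a sialic acid-bearing lipid abundant in developing brain. Gucy1a1 encodes the alpha subunit of soluble guanylyl cyclase, the receptor for nitric oxide, and Zfp462 a nuclear C2H2 zinc finger protein.

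The 5 genes did not share a single tissue pattern. Kcnc1 and Gucy1a1 were near the floor in spleen and thymus and above both in every LN sample. For Gucy1a1 the iLN mean rested largely on replicate 4, at 25 CPM against 2.87 and 4.61 in replicates 2 and 3. Zfp462 was high in iLN and near or below the floor in the other 3 tissues. Map2 and St8sia1 were as high in thymus as in mLN and low in spleen. The name "raised in LN" therefore held against spleen and thymus for Kcnc1 and Gucy1a1, for Zfp462 in iLN, and against spleen alone for Map2 and St8sia1. Differences between tissues were fitted with the quasi-likelihood test of edgeR with tissue and batch as factors, and called genes had a p-value, adjusted over 13600 tested genes by Benjamini-Hochberg, under 0.01 and a fold change over 1.5. All 5 genes passed the filter on low counts, which Kcnc1, Gucy1a1 and Zfp462 could pass through the LN samples alone. The choice of the 5 genes used all 15 samples, so no comparison of tissues is a test of them, and tests are given only for other genes. Because each sample is RNA from many cells, more cells with a transcript and more transcript per cell cannot be told apart.

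**Figure D1:**
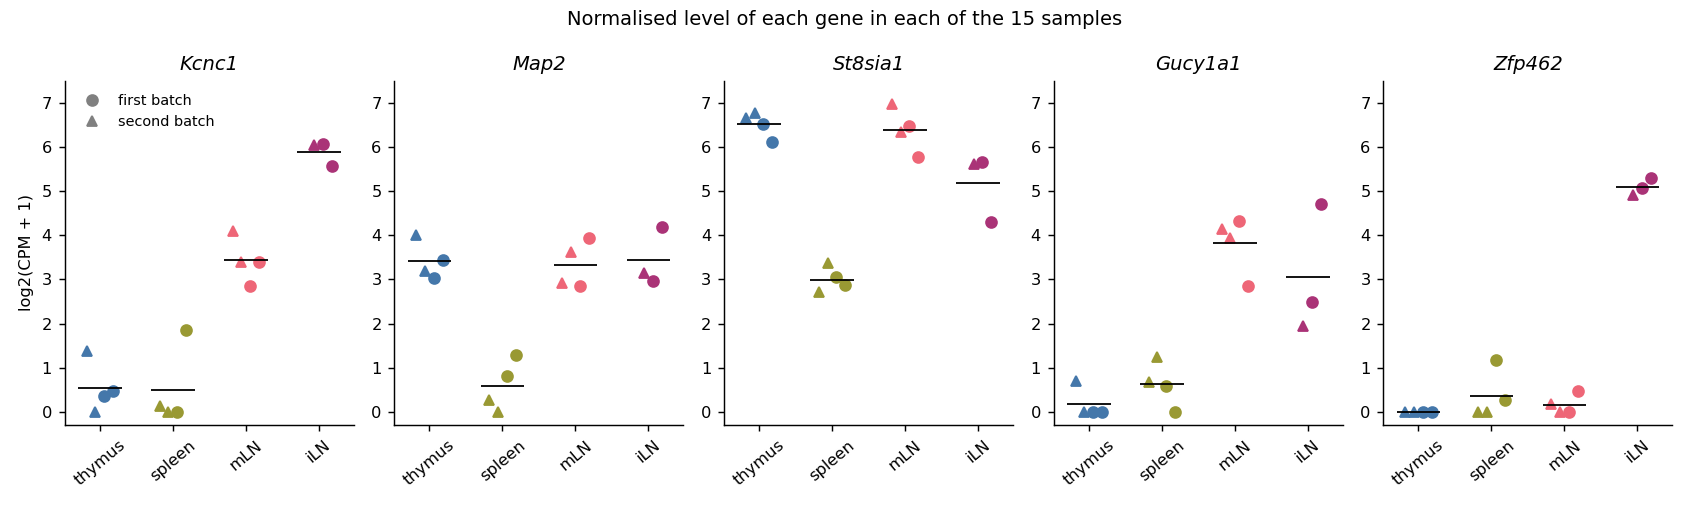
Level of each gene on the log2(CPM + 1) scale (vertical axis) in every sample, by tissue (horizontal axis), with circles for the first batch, triangles for the second batch and a line at the mean of each tissue. Kcnc1 lies between 46.7 and 66.4 CPM in iLN, and Zfp462 between 29.2 and 38.5 CPM in iLN, whereas Map2 and St8sia1 overlap between thymus and mLN.

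Kcnc1 (ENSMUSG00000058975) lies at chr7:46396497-46438704 on the plus strand of GRCm38. It was measured at 65.0, 66.4 and 46.7 CPM in iLN replicates 2, 3 and 4, and at 16.0, 9.58, 6.24 and 9.44 CPM in mLN replicates 1 to 4. In spleen the values were 0.0987, 0, 0 and 2.64 CPM, and in thymus 1.60, 0, 0.275 and 0.379 CPM. Each iLN sample was above each mLN sample, each mLN sample was above each spleen and thymus sample, and spleen and thymus overlapped. The means were 59.4 ± 11 CPM (SD, n = 3) in iLN, 10.3 ± 4.08 (n = 4) in mLN, 0.686 ± 1.31 (n = 4) in spleen and 0.565 ± 0.711 (n = 4) in thymus. In spleen 1 of 4 samples reached 3 counts, and in thymus 1 of 4. The fitted log2 fold change was 4.01 ± 0.87 (SE) in mLN and 6.54 ± 0.92 in iLN against spleen (3.42 to 7.44 and 6.01 to 10.15 with 1 library left out, the highest without spleen replicate 4), and 3.74 ± 0.86 and 6.27 ± 0.93 against thymus. Between the LNs, the log2 fold change of iLN against mLN was 2.53 ± 0.75. The order was the same in both batches, with mean levels of 56.6 CPM in iLN and 7.84 in mLN in the first batch, and 65.0 (1 sample) and 12.8 in the second. Thymus against spleen gave 0.27 ± 0.98, a sign opposite to that of the means and one that turned in 6 alternatives (−1.12 without thymus replicate 1 and −1.88 by mean TPM), with most samples of both tissues under the floor.

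Gucy1a1 (ENSMUSG00000033910, chr3:82092427-82145789, minus strand) was measured at 16.7, 14.4, 19.1 and 6.16 CPM in mLN replicates 1 to 4 and at 2.87, 4.61 and 25 CPM in iLN replicates 2, 3 and 4. Spleen had 0.592, 1.35, 0.498 and 0 CPM, and thymus 0.617 CPM in replicate 1 and 0 in the other 3 samples. All LN samples were above all spleen and thymus samples, and mLN and iLN overlapped, with iLN replicate 4 above every other sample and iLN replicates 2 and 3 below every mLN sample. The means were 14.1 ± 5.64 CPM (SD, n = 4) in mLN, 10.8 ± 12.3 (n = 3) in iLN, 0.611 ± 0.559 (n = 4) in spleen and 0.154 ± 0.309 (n = 4) in thymus. The fitted log2 fold change was 4.53 ± 0.96 in mLN and 4.38 ± 1.05 in iLN against spleen (4.12 to 5.1 and 2.8 to 5.33 with 1 library left out, the lowest in iLN without replicate 4). For iLN against mLN it was −0.15 ± 0.99, and the sign turned to 0.61 without iLN replicate 2, 0.17 without iLN replicate 3 and 0.54 without mLN replicate 3. Within the first batch the mean was 14.8 CPM in iLN and 12.7 in mLN, and within the second 2.87 (1 sample) and 15.5. Thymus against spleen gave −1.35 ± 1.12, with 5 counts in all thymus samples together and 17 in spleen.

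Zfp462 (ENSMUSG00000060206, chr4:54945048-55083563, plus strand) was measured at 29.2, 32.5 and 38.5 CPM in iLN replicates 2, 3 and 4, from 508 expected counts in all. The 4 thymus samples had no counts. The 4 mLN samples had 3 counts together (0.13, 0, 0 and 0.385 CPM), and the 4 spleen samples had 6, of which replicate 3 held 1.25 CPM and replicate 4 held 0.203 CPM. The iLN samples stood apart from all 12 others, with a mean of 33.4 ± 4.69 CPM (SD, n = 3) and no overlap. Against thymus, where all libraries were at 0, the iLN mean was at least 33.6-fold higher than the mean floor of 3 counts per library. Against spleen the fitted log2 fold change was 6.86 ± 1.0 (6.01 to 8.64 with 1 library left out). Against mLN the ratio of pooled counts, scaled by normalised library size, was 276, a size that rests on 3 counts in mLN. The fitted log2 fold change was 7.76 ± 1.06 (6.80 to 8.46 with 1 library left out), a fitted size that depends on the prior count. The levels were 35.5 CPM in iLN and 0.193 in mLN in the first batch, and 29.2 (1 sample) and 0.0648 in the second. The means of thymus, spleen and mLN were under the mean floor of their libraries.

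Map2 (ENSMUSG00000015222, chr1:66175273-66442583, plus strand) was measured at 15.2, 8.09, 7.16 and 9.87 CPM in thymus replicates 1 to 4 and at 0.197, 0, 0.748 and 1.42 CPM in spleen. In mLN the values were 6.61, 11.3, 6.24 and 14.3 CPM, and in iLN 7.89, 6.77 and 17.1 CPM. Spleen was below every sample of the other 3 tissues, which overlapped with each other. The means were 10.6 ± 5.67 CPM (SD, n = 3) in iLN, 10.1 ± 3.58 (n = 4) in thymus, 9.61 ± 3.87 (n = 4) in mLN and 0.592 ± 0.638 (n = 4) in spleen, where 2 of 4 samples reached 3 counts. The fitted log2 fold change of thymus against spleen was 4.34 ± 0.77 (3.87 to 5.15 with 1 library left out). The thymus and spleen means were 8.51 and 1.09 CPM in the first batch and 11.6 and 0.0987 in the second. The values of the LNs against spleen were 4.2 ± 0.76 in mLN and 4.23 ± 0.78 in iLN (3.75 to 5.03 and 3.79 to 5.11 with 1 library left out). Against thymus they were −0.13 ± 0.62 in mLN and −0.10 ± 0.67 in iLN. Between the LNs the difference was 0.03 ± 0.77 (−0.37 to 0.28 with 1 library left out).

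St8sia1 (ENSMUSG00000030283, chr6:142821545-142964452, minus strand) was measured at 99.8, 108.0, 91.7 and 68.7 CPM in thymus replicates 1 to 4 and at 125.0, 80.1, 87.6 and 53.8 CPM in mLN. In iLN replicates 2, 3 and 4 it had 48.1, 49.9 and 18.8 CPM, and in spleen 5.53, 9.32, 7.25 and 6.31 CPM. Thymus and mLN overlapped, all iLN samples lay below them, and all spleen samples lay below iLN. Thymus averaged 92.1 ± 16.9 CPM (SD, n = 4), mLN 86.6 ± 29.3 (n = 4), iLN 38.9 ± 17.4 (n = 3) and spleen 7.10 ± 1.64 (n = 4). The fitted log2 fold change of thymus against spleen was 3.70 ± 0.32, with means of 80.2 and 6.78 CPM in the first batch and 104.0 and 7.43 in the second. It was 3.60 ± 0.31 in mLN and 2.51 ± 0.32 in iLN against spleen, and −0.10 ± 0.27 and −1.19 ± 0.31 against thymus. The log2 fold change of iLN against mLN was −1.09 ± 0.31. Mean levels were 34.3 CPM in iLN and 70.7 in mLN in the first batch and 48.1 (1 sample) and 102.0 in the second. Gm7457, a transcript on the opposite strand, overlaps St8sia1 and had 101 counts over the 15 samples against 4605 for St8sia1. The strand setting of the counting was not given in the sources used here, so reads from the overlap cannot be assigned to either gene. Map2 likewise overlaps the antisense gene Gm10558, which had 1 count.

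**Figure D2:**
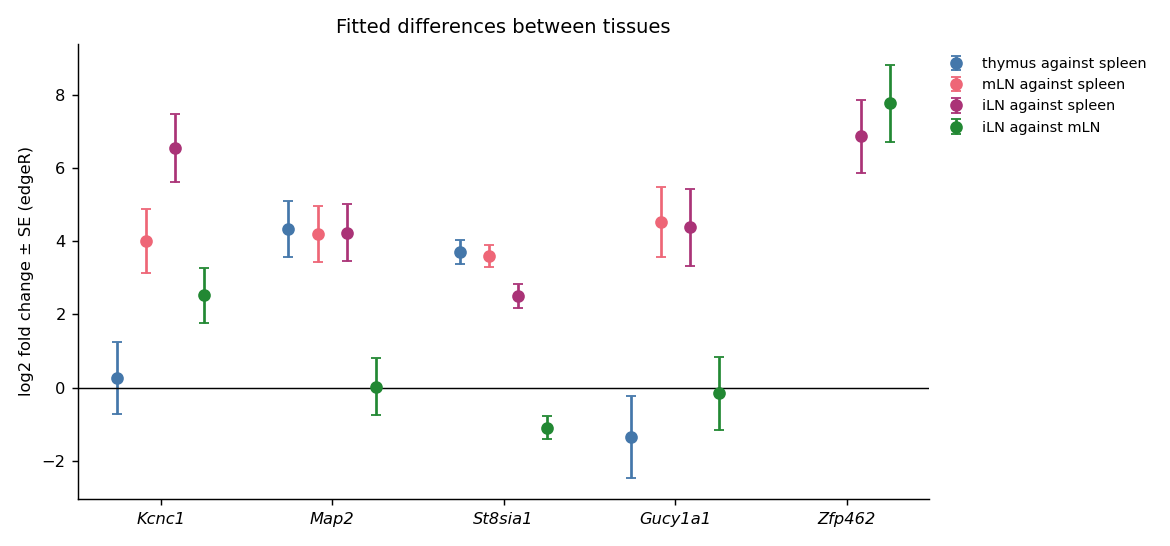
Fitted log2 fold change ± SE from edgeR (vertical axis) for each gene (horizontal axis) in 4 comparisons of tissues, coloured by comparison. Map2 and St8sia1 have like values in thymus and in mLN against spleen (4.34 and 4.2, and 3.70 and 3.60). Zfp462 is shown only for iLN, since its means in the other tissues were under the mean floor of their libraries.

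TPM, which divides the counts by transcript length, allows levels to be compared between the genes. St8sia1 was the highest of the 5 by mean TPM in thymus (13.5 ± 4.84), spleen (1.66 ± 1.30) and mLN (12.9 ± 3.9), while in iLN Gucy1a1 (17.9 ± 26.5), Kcnc1 (14.5 ± 4.22) and Zfp462 (10.3 ± 8.33) were above Map2 (7.48 ± 4.84) and St8sia1 (5.73 ± 2.31). Of these differences in iLN, only that of Kcnc1 over St8sia1 had sample ranges that did not overlap (9.90 to 18.2 against 3.17 to 7.64). For Gucy1a1 the tissue order turned with the scale. Its mean in iLN was above that in mLN by TPM (17.9 against 5.04 ± 2.49) and below it by CPM (10.8 against 14.1). The transcript length that RSEM assigned to its counts differed between samples. It was 4554 bases, the length of 1 annotated transcript (ENSMUST00000048976), in mLN replicates 1, 3 and 4, iLN replicate 3, spleen replicates 1 and 3 and thymus replicate 1, but 4710 bases in spleen replicate 2, 2616 in mLN replicate 2 (7.94 TPM, the highest in mLN), 1125 in iLN replicate 2 and 941 in iLN replicate 4. In that last sample 25 CPM became 48.5 TPM, against 1.04 TPM in iLN replicate 3 and 4.29 in replicate 2. Short transcripts of 425 and 476 bases are annotated for Gucy1a1 beside those of 3105, 4554 and 4710 bases.

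Assigned length also varied for Zfp462 and Kcnc1. Zfp462 had 10465 bases in iLN replicate 3, the length of its longest annotated transcript, 5053 in replicate 2 and 3114 in replicate 4, and its TPM there was 3.13, 8.41 and 19.5 while its CPM stayed between 29.2 and 38.5. Kcnc1 was assigned wholly to its 7760-base transcript in mLN replicates 1, 2 and 3 and had 7498 bases in mLN replicate 4 and 2650 in spleen replicate 4, whereas iLN replicates 2, 3 and 4 had means of 6041, 3806 and 7185 bases. In iLN its TPM was 15.5, 18.2 and 9.90, against 1.04 to 2.64 in mLN. St8sia1 was assigned to its 8991-base transcript alone in 10 of 15 samples, and the shortest assigned length was in spleen replicate 1, with 2649 bases and 3.55 TPM against 0.72 to 1.49 TPM in the other spleen samples. Map2 has 24 annotated transcripts, and its assigned length was between 1112 and 6258 bases. Transcript assignments at such counts have no replicate test here and are given as values.

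**Figure D3:**
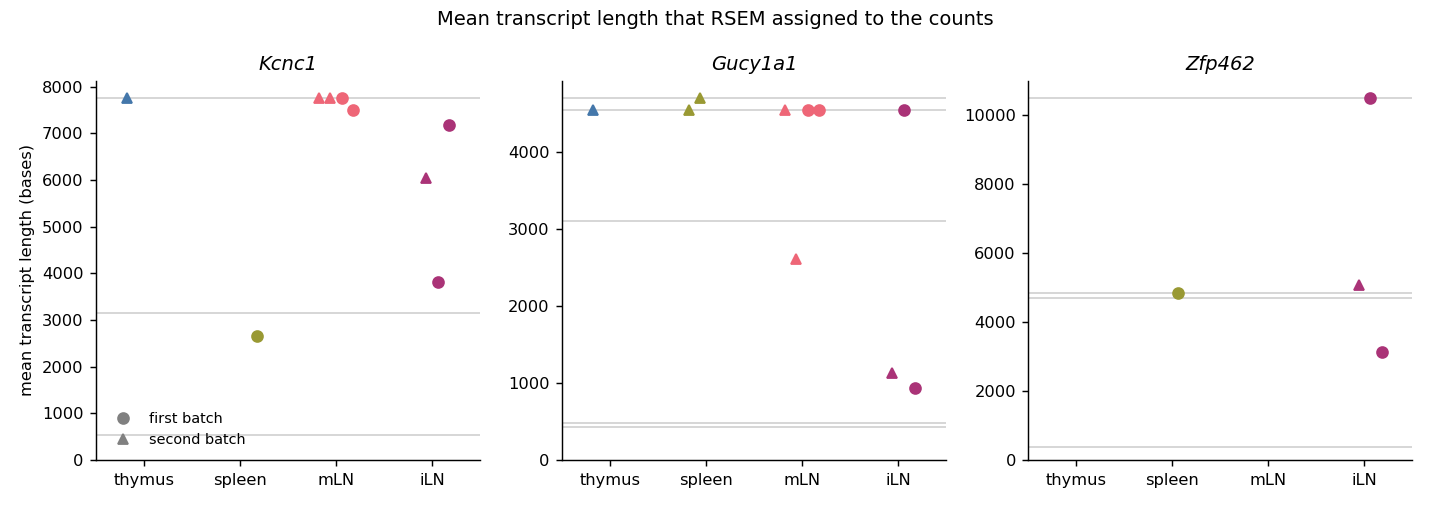
Mean transcript length in bases (vertical axis) that RSEM assigned to the counts of Kcnc1, Gucy1a1 and Zfp462 in each sample with at least 3 counts, by tissue (horizontal axis), with grey lines at the lengths of annotated transcripts. Gucy1a1 lies at 4554 bases in iLN replicate 3 and at 1125 and 941 bases in the other 2 iLN samples.

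The genes whose log2 CPM followed each member most closely over the 15 samples were taken from 10146 tested genes with a mean of at least 5 CPM. The Pearson r is a description, and its points fall into tissues and share libraries. For Kcnc1 they were Sdc1 (r = 0.926), the proteoglycan syndecan-1, Sema4b (0.886), a semaphorin, and Gm26809 (0.885). Sdc1 had 98.2 ± 41.2 CPM in iLN (SD, n = 3), 11.9 ± 3.83 in mLN, 1.35 ± 0.604 in spleen and 1.76 ± 2.2 in thymus (n = 4 each), the same order of LNs over spleen and thymus as Kcnc1. For Gucy1a1 they were Ifngr2 (0.942), a chain of the interferon-gamma receptor, Epas1 (0.923), a hypoxia-inducible factor, and Chdh (0.897), choline dehydrogenase. Ifngr2 had 17.2 ± 8.52 CPM in mLN and 13 ± 6.53 in iLN, against 2.37 ± 1.29 in spleen and 2.11 ± 0.654 in thymus. For Zfp462 they were Hlf (0.956), a PAR bZIP transcription factor, Coro2b (0.956), a coronin, and Ptgdr2 (0.946), a prostaglandin D2 receptor. Hlf had 47.5 ± 21.8 CPM in iLN and 0.453 to 1.09 in the means of the other tissues, and Coro2b 58.8 ± 13.3 CPM against 3.74 to 5.45. For Map2 they were Add3 (0.930), an adducin of the membrane skeleton, Nap1l1 (0.872), a histone chaperone, and Gm26880 (0.864). Add3 had 117.0 ± 8.63 CPM in spleen and means of 206.0 to 225.0 in the other 3 tissues, a smaller difference with the same low tissue. For St8sia1 they were Skil (0.934), a SMAD co-repressor, Mcm6 (0.922), a replication helicase subunit, and Tox (0.916), an HMG-box factor of T cell development. Tox had 104.0 ± 32.3 CPM in thymus, 85.6 ± 28.4 in mLN, 72.1 ± 17.4 in iLN and 30.6 ± 5.05 in spleen.

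Promoters of 4 of the 5 genes were matched in the set of 32851 RefSeq promoters (GRCm38.p6) used here. That set held 2 start sites for Gucy1a1 and no match for Zfp462. They are shown for Map2 and St8sia1, both lowest in spleen, and for Kcnc1 and Gucy1a1, both above spleen and thymus in both LNs, each from 250 bases before to 50 after the start site, 5′ to 3′. Capitals mark a match, on either strand, to AP-1 (TGANTCA), E-box (CACGTG), CRE (TGACGTCA), the ROR core element (AGGTCA), Egr (GCGNGGGCG) or the left part of the RE1 element (TTCAGCACC). The regions are chr1:66175079-66175378 (plus strand) for Map2, chr6:142964403-142964702 (minus strand) for St8sia1, chr7:46396218-46396517 (plus strand) for Kcnc1 and chr3:82145024-82145323 (minus strand) for the second Gucy1a1 start site.
Map2: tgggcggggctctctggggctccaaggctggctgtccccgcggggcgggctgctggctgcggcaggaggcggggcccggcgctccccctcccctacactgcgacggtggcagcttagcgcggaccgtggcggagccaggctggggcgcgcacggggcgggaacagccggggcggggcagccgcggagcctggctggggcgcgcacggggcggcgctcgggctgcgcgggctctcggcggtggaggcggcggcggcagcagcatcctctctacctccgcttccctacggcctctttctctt
St8sia1: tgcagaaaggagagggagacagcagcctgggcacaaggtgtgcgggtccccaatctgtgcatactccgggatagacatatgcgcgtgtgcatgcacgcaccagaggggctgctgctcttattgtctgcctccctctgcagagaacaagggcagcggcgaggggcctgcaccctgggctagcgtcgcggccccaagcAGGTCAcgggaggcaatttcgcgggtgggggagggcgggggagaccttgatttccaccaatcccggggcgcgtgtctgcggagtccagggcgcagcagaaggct
Kcnc1: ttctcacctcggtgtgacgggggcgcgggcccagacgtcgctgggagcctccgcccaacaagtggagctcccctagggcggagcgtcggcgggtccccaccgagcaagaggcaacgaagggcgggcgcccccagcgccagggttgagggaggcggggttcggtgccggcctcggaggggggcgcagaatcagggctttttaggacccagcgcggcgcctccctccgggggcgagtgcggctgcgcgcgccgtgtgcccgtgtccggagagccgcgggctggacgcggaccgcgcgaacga
Gucy1a1: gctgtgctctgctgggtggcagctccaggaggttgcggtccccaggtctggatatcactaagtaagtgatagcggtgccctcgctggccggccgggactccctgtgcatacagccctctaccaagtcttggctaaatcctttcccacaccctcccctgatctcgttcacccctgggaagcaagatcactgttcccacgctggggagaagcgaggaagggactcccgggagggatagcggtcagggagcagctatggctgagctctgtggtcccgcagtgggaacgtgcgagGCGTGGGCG
The St8sia1 promoter held 1 ROR core element, 54 bases before the start, a match that 16.3% of the 32851 promoters in the table hold. The second Gucy1a1 promoter held 1 Egr match, beginning 42 bases after the start, which 5.55% of promoters hold. The other 3 windows, the first Gucy1a1 start site included, had none of the 6 letter strings, which were present in 7.81% (AP-1), 7.15% (E-box), 1.79% (CRE) and 0.371% (RE1 left part) of all promoters. GC content was 77.7% for Map2, 74.7% for Kcnc1, 64.7% for St8sia1 and 62.3% for both Gucy1a1 windows, against a median of 52.7% over all promoters.

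Companion genes of each member were taken from lists of its pathway, without the member itself, and the most abundant gene of a list is that with the highest mean TPM over all 15 samples. For potassium channels, 5 of 19 genes were tested. Kcnn4, the calcium-activated channel of T cells, rose in mLN against spleen (1.80 ± 0.30 on the log2 scale, edgeR adjusted p = 0.00447), where 0.654% of all tested genes were called. It had 59.7 ± 25.6 CPM in mLN (SD, n = 4), 34 ± 12.6 in iLN (n = 3), 28.6 ± 5.77 in thymus and 17 ± 6.71 in spleen (n = 4 each). The most abundant was Kcnab2, a channel beta subunit that was first in thymus and spleen only, with mean TPM between 20.8 in mLN and 32.1 in thymus. Kcnc2 and Kcnc4 had no counts in any sample and were looked up after the values had been seen. The median log2 fold change of the 5 genes was 0.16 in thymus, 0.3 in mLN and 0.50 in iLN against spleen. In iLN against mLN it was −0.29. All tested genes had medians between −0.01 and 0.01 in these comparisons.

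For nitric oxide and cGMP, 7 of 15 genes were tested. Pde5a, the phosphodiesterase that degrades cGMP, rose in iLN against spleen (4.90 ± 0.81, edgeR adjusted p = 0.00146), where 1.55% of all tested genes were called, and had 34.4 ± 4.24 CPM in iLN (SD, n = 3), 4.65 ± 3.77 in mLN, 2.62 ± 1.09 in thymus and 1.27 ± 1.32 in spleen (n = 4 each). In iLN against mLN it was 2.99 ± 0.73 and was not called by edgeR (adjusted p = 0.0491), whereas DESeq2 called it higher and Pde2a, a more abundant cGMP phosphodiesterase, lower (beside 1.90% of all tested genes). Pde2a had 109.0 ± 28.3 CPM in mLN and 44.3 ± 25.4 in iLN (−1.48 ± 0.38, edgeR adjusted p = 0.0576). The most abundant was Vasp, an actin regulator that the cGMP-dependent kinase phosphorylates, with mean TPM between 60.5 in iLN and 78.9 in thymus. The beta subunit Gucy1b1, with which the alpha subunit forms the active cyclase, had 17 counts over the 15 samples, against 553 for Gucy1a1, and mean levels of 0.514 CPM in mLN and 0.285 in iLN. It did not pass the filter on low counts and was looked up after the values had been seen. Nos2, Nos3, Prkg1 and Prkg2 had no counts in any sample. The third synthase gene, Nos1, had 5.11 ± 5.3 CPM in thymus, 0.402 ± 0.288 in spleen, 1.18 ± 0.112 in mLN and 3.14 ± 2.11 in iLN, and in thymus against spleen (3.58 ± 0.94) it was not called by edgeR (adjusted p = 0.0493) and called higher by DESeq2 (beside 2.85%).

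For ganglioside metabolism, 18 of 24 genes were tested. In thymus against spleen 2 rose and 1 fell, where 1.32% of all tested genes were called. The risers were Ugcg, which makes the glucosylceramide from which gangliosides are built (1.26 ± 0.15, edgeR adjusted p = 3.14e-05), and B4galt5, which adds galactose to it (1.57 ± 0.29, adjusted p = 0.00407). St6galnac3, a sialyltransferase, fell (−1.04 ± 0.20, adjusted p = 0.0051). St8sia6, another alpha-2,8-sialyltransferase, rose in mLN (2.96 ± 0.34, adjusted p = 0.000102) and iLN (2.16 ± 0.36, adjusted p = 0.00158) against spleen, and St3gal1 (1.27 ± 0.25, adjusted p = 0.00698) and the ganglioside activator Gm2a (1.35 ± 0.23, adjusted p = 0.00166) in iLN against spleen, so that 1 of 18 was called in mLN and 3 of 18 in iLN, beside 0.654% and 1.55% of all tested genes. DESeq2 called 3 higher and 1 lower in thymus, 2 higher in mLN, and 4 higher and 1 lower in iLN against spleen and 1 higher in iLN against mLN (beside 2.85%, 1.82%, 4.04% and 1.90%), the lower one in iLN being the sialidase gene Neu1 (−1.14 ± 0.30, edgeR adjusted p = 0.0393). St8sia6 had 132.0 ± 47.4 CPM in mLN (SD, n = 4), 62.0 ± 12.7 in iLN (n = 3), 38.9 ± 12.8 in thymus and 17.8 ± 12.6 in spleen (n = 4 each), so that its thymus level, unlike that of St8sia1, was below mLN. Ugcg was also the most abundant, although first in thymus only, with mean TPM of 424.0 in thymus and 192.0 to 224.0 in the other tissues. St3gal5, which makes the GM3 that St8sia1 uses, had 51 counts over the 15 samples and was looked up after the values had been seen.

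For microtubule-associated proteins, 11 of 16 genes were tested. Map4, the form found in most cell types and the most abundant of the list by mean TPM, rose in counts in thymus (0.77 ± 0.15, edgeR adjusted p = 0.0048) and iLN (1.30 ± 0.16, adjusted p = 5.18e-05) against spleen and in iLN against mLN (1.16 ± 0.16, adjusted p = 0.000385), where 1.32%, 1.55% and 0.471% of all tested genes were called. It stood at 254.0 ± 36.5 CPM in iLN (SD, n = 3), while thymus had 182.0 ± 21.1, mLN 118.0 ± 21.7 and spleen 107.0 ± 17.1 (n = 4 each). By mean TPM the order was another, with 178.0 in spleen, 169.0 in iLN, 156.0 in thymus and 132.0 in mLN, so that the direction against spleen turned with the scale. For heterochromatin proteins listed as partners of Zfp462, all 9 genes were tested. Cbx5, a heterochromatin protein, rose in thymus against spleen (0.85 ± 0.17, adjusted p = 0.00851). The most abundant was Cbx3, another of this family, with mean TPM between 122.0 in spleen and 176.0 in mLN. The median log2 fold change of the 9 genes was 0.06 in iLN against mLN. Against spleen it was 0.24 in thymus, 0.29 in mLN and 0.17 in iLN.

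**Figure D4:**
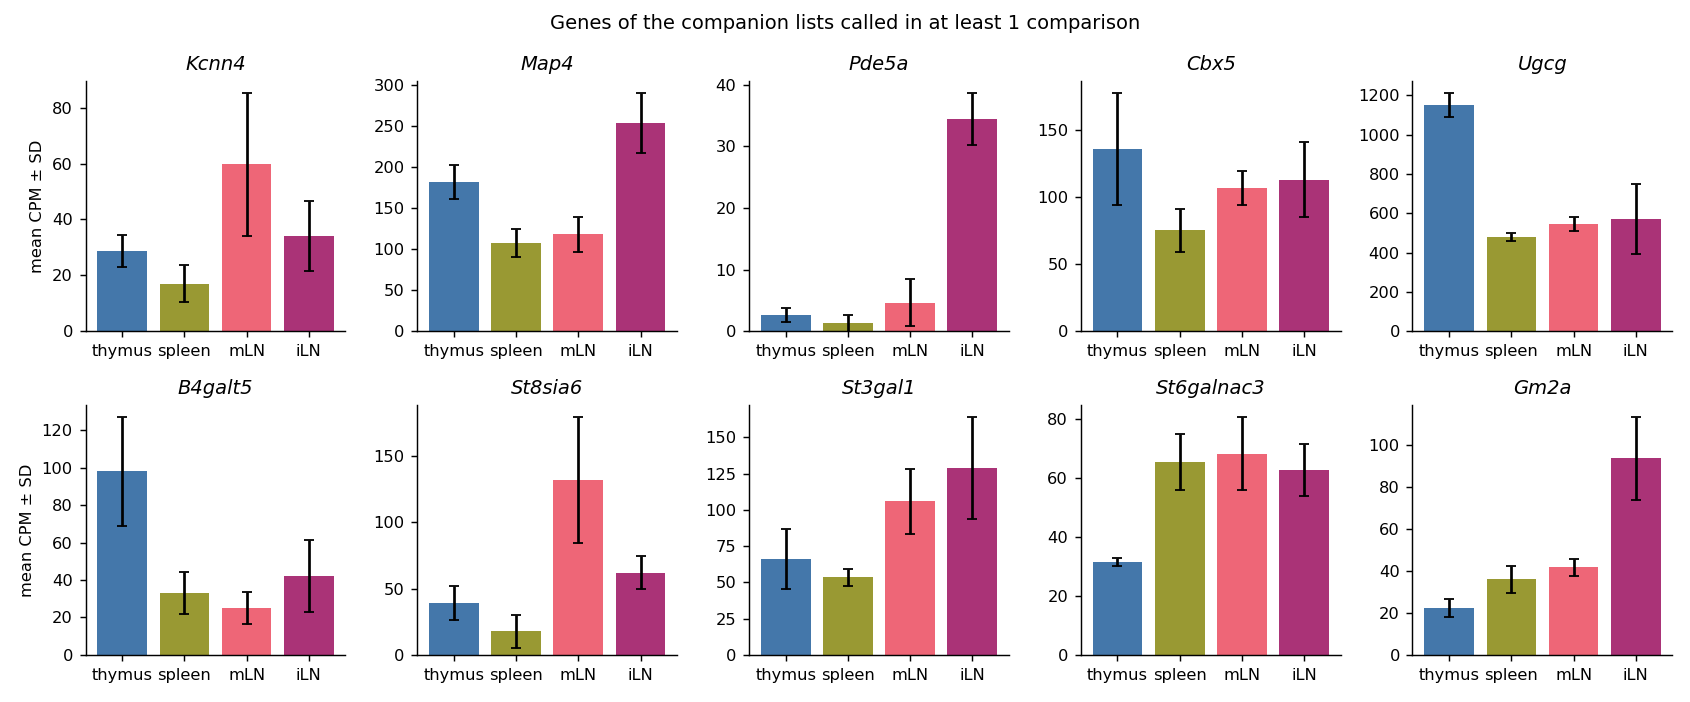
Mean CPM with SD as error bars (vertical axes, from 0) by tissue for the 10 companion genes called in at least 1 of 4 comparisons, with 4 samples each in thymus, spleen and mLN and 3 in iLN. Pde5a is at 34.4 CPM in iLN and at most 4.65 CPM in the other tissues, and St8sia6 is highest in mLN at 132.0 CPM.

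The sorted cells carried 8 of 9 T cell and iNKT genes in every tissue, and the neuron list summed to at most 11.7 TPM in any sample. The ninth, Trav11d, had no counts in spleen and mLN and 17.1 ± 34.1 CPM in thymus (SD, n = 4) and 0.723 ± 1.25 in iLN (n = 3), SDs above the means. The list had a summed TPM of 6290 in thymus, 5450 in spleen, 6910 in mLN and 6140 in iLN on average, and Trbc2, a TCRβ constant gene, was the most abundant (1480 to 2310 TPM) and first in all tissues but thymus. Of 23 neuron genes, 13 had a count, and Syt1, Nefm, Elavl3, Elavl4, Gap43, Slc17a6, Gad1, Th, Chat and Uchl1 had none in any sample. Their summed TPM was 1.14, 2.44 and 11.7 in iLN replicates 2, 3 and 4, 1.31, 2.81, 4.38 and 3.32 in mLN replicates 1 to 4, 3.80, 0.93, 3.17 and 4.53 in spleen, and 8.11, 7.74, 3.02 and 4.04 in thymus, so that the tissues overlapped. Nefh, a neurofilament gene, was the most abundant (1.35 to 4.21 TPM) and first in all tissues but iLN. Only 2 neuron genes were tested, and edgeR and DESeq2 called neither in any of the 4 comparisons, with 1 at an unadjusted p under 0.05 (thymus against spleen). The part of neurons in the members' levels was not tested.

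The other non-lymphoid lists differed in level. Of 8 glia genes 4 had counts (with Sox10, Mog and Cdh19 among those at 0), with a summed TPM of 31.7 in mLN replicate 1, 26.8 in thymus replicate 2 and at most 5.38 in the other 13 samples. The part of glia in the members' levels was not tested. Of 9 fibroblastic stroma genes 3 had counts (Ccl21a most abundant, though at 0 in spleen and iLN, and Pdpn, Ccl19, Col3a1, Pdgfra, Pdgfrb and Dcn at 0), and the sum was at most 0.92 TPM in any sample. Of 7 endothelium genes 4 had counts (with Kdr, Tek and Lyve1 at 0), with a summed TPM of 33.1, 55.9, 16.6 and 20.4 in thymus replicates 1 to 4, 55.8, 35.3, 21.6 and 33.9 in spleen, 43.4, 64.5, 38 and 51.3 in mLN, and 76, 33.5 and 53.2 in iLN replicates 2, 3 and 4. Pecam1, the most abundant, had mean TPM of 23.7 in thymus, 26.8 in spleen, 40.3 in mLN and 45.8 in iLN, with no call in any of the 4 comparisons. Vwf, the other endothelium gene tested, had 12, 14.4, 13.6 and 12.9 CPM in the same order, and Cdh5 was at 0 in both LNs. The part of endothelium in the members' levels was not tested. Of 6 smooth muscle and pericyte genes 5 had counts (Tagln most abundant, Des at 0), with a sum of at most 4.2 TPM. The 7 B cell genes were led by Ighm (107.0 to 194.0 TPM). In thymus against spleen edgeR called none of the 4 tested, all at an unadjusted p under 0.05 (median log2 fold change −3.42), and DESeq2 called Ighm lower (beside 2.85%). Their summed TPM was 323.0, 207.0, 140.0 and 209.0 in spleen, 129.0, 91.3, 103.0 and 109.0 in thymus, 128.0, 181.0, 187.0 and 169.0 in mLN, and 216.0, 165.0 and 205.0 in iLN. The 11 myeloid genes were led, in all tissues but thymus, by Lyz2. Lyz2 fell in thymus against spleen (0.326 ± 0.383 against 15.5 ± 18.7 CPM, SD, n = 4 each, edgeR adjusted p = 0.00997), where 1.32% of all tested genes were called. The summed TPM of the myeloid list was 90.2 in spleen replicate 1 against 10.6 to 21.2 in the other spleen samples. Of 6 red cell genes 5 had counts, led by Hbb-bs in thymus and spleen only, and 3 fell in mLN and 1 in iLN against spleen (0.654% and 1.55% of all tested genes called), and DESeq2 called 4 and 3 lower (beside 1.82% and 4.04%). The summed level was 203.0 TPM in spleen, 36.5 in thymus, 2.69 in mLN and 7.54 in iLN. The part of red cell RNA in the values against spleen was not tested. The 6 immature and CD8 thymocyte genes had Cd8b1 as the most abundant (1.2 to 3.96 TPM), which was first in iLN only. Rag1 rose in thymus against spleen (13.2 against 0.0376 CPM, edgeR adjusted p = 0.00118, beside 1.32% of all tested genes).

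Among the lists of T cell subsets, 9 of 13 tested NKT17 genes rose and 5 of 9 NKT1 genes fell in iLN against spleen, where 1.55% of all tested genes were called. Of 16 genes of NKT17 cells, the iNKT subset that makes IL-17, 13 were tested, and 2 rose in mLN against spleen (Il1r1 and Sdc1, beside 0.654% of all tested genes) and 1 in iLN against mLN (Sdc1, beside 0.471%), while 1 fell in thymus against spleen (Rora, beside 1.32%). DESeq2 called 12 higher in iLN and 3 in mLN against spleen and 5 in iLN against mLN, and 1 lower in thymus (beside 4.04%, 1.82%, 1.90% and 2.85%). Their summed TPM was 459.0, 303.0 and 849.0 in iLN replicates 2, 3 and 4, 86.6, 159.0, 105.0 and 115.0 in mLN replicates 1 to 4, 89.7, 86.4, 62.0 and 72.2 in spleen, and 49.5, 39.2, 25.3 and 24.3 in thymus. All iLN samples were above the rest, thymus was below the rest, and spleen and mLN overlapped. The most abundant gene was Rora (9.15 to 53.5 TPM by tissue), first in all tissues but iLN, and none of the 16 was at 0. Kcnc1, Zfp462 and Pde5a had their highest levels in the same 3 iLN samples, and the part of the NKT17 share in their levels was not tested. Map2 and St8sia1 were as high in thymus as in mLN. The part of the NKT17 share in the levels of Map2, St8sia1 and Gucy1a1 was not tested either.

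Of 9 NKT1 genes, led by Il2rb (446.0 to 684.0 TPM), 2 fell in mLN against spleen (Ccl5 and Klrb1c, beside 0.654% of all tested genes), and in thymus Klrd1 rose and Ccl5 fell (beside 1.32%). DESeq2 called 8 lower in iLN, 4 lower in mLN, and 2 higher and 2 lower in thymus (beside 4.04%, 1.82% and 2.85%). The most abundant of the 5 NKT2 genes was Gata3 (39.9 to 58.8 TPM), first in thymus and spleen only, and edgeR called none, with 2, 1, 2 and 1 at an unadjusted p under 0.05 in thymus, mLN and iLN against spleen and in iLN against mLN, and DESeq2 called 1, Il13, higher in thymus (beside 2.85% of all tested genes). Of 6 gamma-delta T cell genes 5 had counts (Trdv4 at 0), and Sox13, Tcrg-C1 and Tcrg-C2 rose in iLN against spleen (1.55% of all tested genes called), led by Tcrg-C2 (402.0 to 695.0 TPM), and DESeq2 called the same 3 there and Sox13 and Tcrg-C1 higher in iLN against mLN (beside 4.04% and 1.90%). Trdc, the TCRδ constant gene, had 0.0598 ± 0.104 CPM in iLN (SD, n = 3), 0.326 ± 0.348 in spleen, 2.96 ± 3.37 in mLN and 0.235 ± 0.283 in thymus (n = 4 each). Its mean was thus highest in mLN, with an SD above the mean, and lowest in iLN. The summed TPM of that list was 1610, 800.0 and 1910 in iLN, 1650, 1420, 726.0 and 901.0 in mLN, 1160, 1160, 433.0 and 598.0 in spleen, and 1840, 2050, 627.0 and 644.0 in thymus, and in thymus, spleen and mLN the samples of the second batch were all above those of the first. The part of gamma-delta T cells in the members' levels was not tested. The 3 regulatory T cell genes, led by Ikzf2 (34.1 to 83.0 TPM), had no call by edgeR and 1, 2, 3 and 1 at an unadjusted p under 0.05 in the same 4 comparisons, and DESeq2 called Ikzf2 lower in thymus and Ikzf4 higher in mLN against spleen and Ikzf2 higher in iLN against mLN (beside 2.85%, 1.82% and 1.90% of all tested genes). Foxp3 had 10.8 ± 4.34 CPM in iLN (SD, n = 3), 10.6 ± 15.7 in mLN, 1.25 ± 0.818 in spleen and 0.577 ± 0.466 in thymus (n = 4 each), and Ikzf4 8.28 ± 8.44, 18.7 ± 11.1, 2.29 ± 1.58 and 1.21 ± 0.97 in the same order. Ikzf2 had 382.0 ± 71.6, 252.0 ± 50.5, 310.0 ± 75.4 and 193.0 ± 28.7 CPM, so that the 3 genes had different orders. The summed TPM of the list was 105.0, 60.6 and 101.0 in iLN, 50.5, 78.6, 41.3 and 50.5 in mLN, 81.1, 73.1, 33.9 and 48.2 in spleen, and 42.9, 38.4, 28.4 and 28.4 in thymus, and the part of regulatory T cells in the members' levels was not tested.

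**Figure D5:**
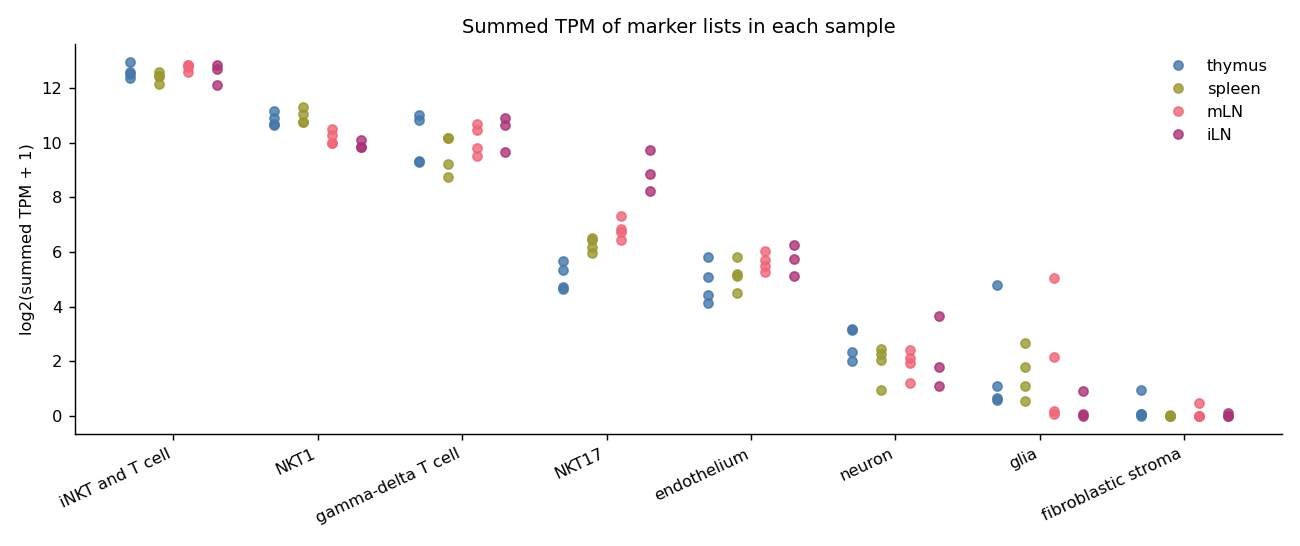
Summed TPM of 8 marker lists on the log2(TPM + 1) scale (vertical axis) in each of the 15 samples, coloured by tissue, with the lists on the horizontal axis. The neuron list is at most 11.7 TPM in every sample, and the NKT17 list is 303.0 to 849.0 TPM in iLN against at most 159.0 TPM elsewhere.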

How the data were processed

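RNAseq of sorted iNKT cells was analysed in 15 samples, grouped by the tissue in their labels. The authors used cutadapt 1.7.1, RSEM 1.2.31 and Bowtie2 2.2.9 on GRCm38 (from the submitters' processing notes). The deposited expected counts are RSEM's estimates of reads per gene, with a read that fits several genes split among them. The authors' TPM values divide these by effective length and sum to a fixed total. The deposited FPKM values were not used here. The annotation release was not given in the sources used here. GENCODE M21, used for positions, matched the deposited lengths where a member had no counts (mean over its transcripts, to within 0.02 bases).

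Expected counts were rounded, filtered with filterByExpr, TMM-normalised (factors 0.755 to 1.18) and tested with edgeR 4.0.16 in R 4.3.3. The fit was also run on simulated data, and no result of that run is given or used here. Tables and figures used Python 3.11.15 with numpy 2.4.6, pandas 2.3.3 and matplotlib 3.10.9. Replicates differed by more than counting error. The alternatives were RLE factors, DESeq2 1.42.0, no filter, no batch term, the replicate number as a block, each library left out, the ratio of mean TPM, and each batch alone.

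Members and lists were chosen with earlier results of these data known. The genes named were the 5 members, the genes of 5 companion lists called in at least 1 of 4 comparisons (at most 6 a list) with the most abundant gene of each by mean TPM, the most abundant gene and those at 0 in each of 15 marker lists (some not named), and the 3 genes of highest Pearson r for each member. Il1r1, Rag1, Sox13, Tcrg-C1, Ccl5, Klrb1c, Klrd1, Il13, Foxp3, Ikzf4, Trav11d, Trdc, Vwf, Cdh5, Nos1, Pde2a, Neu1, the companion genes at 0 and those marked so in the text were named after their values had been seen.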

Additional observations from a re-analysis of the deposited data

Results flagged for a closer look

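In 3 of 15 groups of 4 samples (5 genes in thymus, spleen and mLN), 1 sample lay far from the other 3, where chance gives about 1 in 20 for continuous values, a rate that does not apply to groups with samples at or near 0 such as these. Kcnc1 had 2.64 CPM in spleen replicate 4, against 0.0987 CPM at most in the other spleen samples. Gucy1a1 had 0.617 CPM in thymus replicate 1, whereas the other 3 thymus samples had no counts. Zfp462 had 1.25 CPM in spleen replicate 3, against 0.203 CPM at most in the other spleen samples. Each of these values comes from a low count (13, 5 and 5 expected counts), in a tissue where the gene was near the floor.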

How the results depend on the processing

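Genes called were 179, 89, 211 and 64 in thymus, mLN and iLN against spleen and in iLN against mLN. They were 387, 248, 550 and 259 with DESeq2, 393, 273, 544 and 279 without the filter on low counts, and, without the batch term, 29 in mLN and 129 in iLN against spleen and 40 in iLN against mLN. Leaving out 1 library gave 114 to 147, 24 to 59, 108 to 170 and 44 to 59 genes. Each of the 8 libraries moved the mLN count by over 1.5 times, as did thymus replicate 1 and spleen replicate 4 in thymus, and spleen replicates 3 and 4 and iLN replicates 2 and 4 in iLN against spleen. The labels share replicate numbers, but same-numbered samples of different tissues deviated together with r over 0.1 in 15 of 21 pairs, beside 16 of 21 with another number in the same batch (mean r 0.138 and 0.125), so they were not taken as paired. This check cannot exclude a pairing, since samples of another number in a batch may share mice. The paper itself compared clonotype frequencies from this RNAseq with a paired t-test. With the replicate block 174, 70, 175 and 62 genes were called.

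Leaving out 1 library moved the log2 fold change of Kcnc1 in thymus against spleen between −1.12 and 3.65, that of Map2 between 3.87 and 5.15, of Gucy1a1 between −4.76 and −0.71 and of Zfp462 between −4.07 and −1.86. In iLN against mLN it moved that of Map2 between −0.37 and 0.28, of Gucy1a1 between −1.81 and 0.61 and of Zfp462 between 6.80 and 8.46. Zfp462 in mLN against spleen, both with means under the mean floor, was between −1.64 and 0.90. DESeq2 gave −2.3 for Zfp462 in thymus against spleen and 8.02 in iLN against mLN. The log2 ratio of mean TPM was −1.88 for Kcnc1, 5.19 for Map2, 3.02 for St8sia1 and −2.02 for Gucy1a1 in thymus against spleen, and 3.03 for Kcnc1, 1.83 for Gucy1a1 and 8.84 for Zfp462 in iLN against mLN. In mLN and iLN against spleen it was 2.39 and 5.42 for Kcnc1, 4.87 and 5.21 for Map2, 2.96 and 1.79 for St8sia1, 4.79 and 6.62 for Gucy1a1 and −1.74 and 7.11 for Zfp462. It could not be given for Zfp462 against thymus, which had no counts. Differences in mean log2(CPM + 1), a scale that shrinks low genes, were −0.53 for Kcnc1, 2.19 for Map2, 3.37 for St8sia1, −0.29 for Gucy1a1 and −0.72 for Zfp462 in thymus against spleen within the first batch, and 3.47 for Map2 and −0.61 for Gucy1a1 within the second. In iLN against mLN they were 0.01 for Gucy1a1 and 4.95 for Zfp462 within the first batch and −0.12 for Map2, −2.09 for Gucy1a1 and 4.83 for Zfp462 within the second, where iLN had 1 sample, and Zfp462 in mLN against spleen was 0.09 within the second. In mLN against spleen the differences were 2.19 for Kcnc1, 2.35 for Map2, 3.17 for St8sia1 and 3.29 for Gucy1a1 within the first batch. Within the second they were 3.15 for Map2 and 3.09 for Gucy1a1. In iLN against spleen they were 4.89 for Kcnc1, 2.53 for Map2 and 4.47 for Zfp462 within the first batch. Within the second, with 1 iLN sample, they were 3.02 for Map2, 1 for Gucy1a1 and 4.92 for Zfp462. Where a size or sign changed, the cause was not tested. Depth limits Kcnc1 and Gucy1a1 in thymus and spleen, Zfp462 there and in mLN, and Map2 in spleen, where at least 2 of 4 samples held under 3 counts. In all, 230 of 308 values of the 5 genes under these alternatives kept their direction and moved by less than the SD between replicates, 31 of the 155 values of an LN against spleen and 30 of the 153 others kept their direction and moved by more, and 2 and 15 reversed.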
